A study of Mus musculus with 41 samples.

Results

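The type I interferon response genes are genes whose transcription rises when a cell senses interferon alpha or beta. A fixed list of 37 of them was read from both deposited tables by gene symbol, and all 37 were found among the 50763 genes of the count table. Splenic B cells of mice had been sorted into subsets and their polyadenylated RNA sequenced in bulk, in 41 libraries of 16 animals, and 40 libraries in 12 groups were used. The study compared B cells with mutant Mek1 and Mek2, kinases that pass growth factor signals to ERK, with wild-type B cells.

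The libraries labelled 1Mek2, called 1Mek2 here by that label alone, came from mice that carried Vav1-iCre, were Mek1flox/flox and were heterozygous for Mek2 (Mek2+/-). Vav1-iCre is active in all blood cells and not only in B cells. The mice they were set against were wild type (wt), and all mice were 3 to 5 months old. Plasma cells had been gated as B220+CD138+ and Immature cells as B220+CD93+CD138-. The gate of germinal center (GC) cells was GL7+FAS+, and CD21+ cells were split by CD23 into Follicular (CD23+) and MarginalZone (CD23-). For age-associated B cells (ABC) the labels give no gate. There were 3 libraries labelled 1Mek2 and 3 wt libraries each of Immature, ABC, MarginalZone and Plasma, and 4 of each genotype of GC and Follicular. An Immature library labelled 1Mek2 whose library name reads Mek1ff was left out. The GC library of the same animal carries the same name but is labelled wt, and it was kept as wt. Animals were told apart only by the number in the library name.

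Type I interferons bind a receptor made of IFNAR1 and IFNAR2, whose kinases phosphorylate STAT2. STAT2 joins IRF9 in a complex that enters the nucleus and binds a short repeated GAAA motif, the interferon-stimulated response element, in the promoters of many of the genes it induces. The products block viral entry, translation and budding, sense foreign RNA, or, like IRF7 and USP18, amplify or damp the response itself. In the spleen, plasmacytoid dendritic cells are a strong source of type I interferon, and B cells respond to it with a stronger answer to Toll-like receptor ligands and with antibody secretion.

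The promoters of 5 members called in the comparisons are shown, chosen among those that carry the letters this pathway reads. The motif GAAA, then any 2 bases, then GAAA, was searched on both strands, overlaps allowed, from 250 bases before to 50 bases after each gene's start. Of the 37 members, 27 had an entry in the RefSeq table, and 14 of these 27 (51.9%) held the motif, against 1079 of 27025 genes (3.99%). The sequences are from RefSeq, build GRCm38.p6, each written 5′ to 3′ on the strand of its gene, with the matches in capitals. Bst2 (chr8:71537423-71537722, minus strand), Isg15 (chr4:156200769-156201068, minus strand) and Oas1g (chr5:120887564-120887863, minus strand) each held overlapping matches, which read as a single longer run of capitals. Ifit3 (chr19:34583279-34583578, plus strand) held 2 separate matches and Trim30a (chr7:104465144-104465443, minus strand) held 1, and in both genes the match lies on the opposite strand and so reads as TTTC, any 2 bases, TTTC.
Bst2: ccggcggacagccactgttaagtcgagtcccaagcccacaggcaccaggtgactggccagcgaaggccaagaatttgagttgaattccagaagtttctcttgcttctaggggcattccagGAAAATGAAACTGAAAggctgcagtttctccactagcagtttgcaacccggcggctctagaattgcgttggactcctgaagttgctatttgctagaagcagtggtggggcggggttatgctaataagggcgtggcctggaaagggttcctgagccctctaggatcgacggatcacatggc
Isg15: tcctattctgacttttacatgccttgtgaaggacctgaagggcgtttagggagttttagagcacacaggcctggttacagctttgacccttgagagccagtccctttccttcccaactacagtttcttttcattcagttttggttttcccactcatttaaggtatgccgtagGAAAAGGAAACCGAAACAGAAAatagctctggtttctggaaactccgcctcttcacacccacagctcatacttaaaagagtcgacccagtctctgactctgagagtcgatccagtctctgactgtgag
Oas1g: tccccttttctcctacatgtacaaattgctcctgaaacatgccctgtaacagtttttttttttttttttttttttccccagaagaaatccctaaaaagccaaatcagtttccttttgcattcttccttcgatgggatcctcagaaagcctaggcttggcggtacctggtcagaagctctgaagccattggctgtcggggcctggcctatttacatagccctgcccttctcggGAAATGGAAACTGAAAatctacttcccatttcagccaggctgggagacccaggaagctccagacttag
Ifit3: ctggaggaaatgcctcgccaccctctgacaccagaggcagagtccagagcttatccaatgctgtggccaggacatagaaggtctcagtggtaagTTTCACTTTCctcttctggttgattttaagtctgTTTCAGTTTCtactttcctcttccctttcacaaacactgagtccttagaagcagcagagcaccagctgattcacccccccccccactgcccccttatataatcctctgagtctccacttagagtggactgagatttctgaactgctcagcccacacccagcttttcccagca
Trim30a: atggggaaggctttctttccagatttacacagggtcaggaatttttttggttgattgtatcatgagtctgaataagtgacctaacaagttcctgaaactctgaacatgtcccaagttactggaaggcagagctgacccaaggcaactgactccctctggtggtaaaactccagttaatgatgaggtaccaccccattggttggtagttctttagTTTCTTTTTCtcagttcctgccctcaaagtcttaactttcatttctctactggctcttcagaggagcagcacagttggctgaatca
The match began 78, 72 and 66 bases before the start of Isg15, 18 and 12 bases before that of Oas1g, and 36 bases before that of Trim30a. Trim30a has another entry, not shown, whose match began 2 bases after the start. Of other members that the comparisons call, Oasl1, Oasl2, Ubd, Isg20, Ifi35, Ifi44, Irf7, Irf9, Xaf1, Cmpk2 and Adar had no match in this window. A match is a description of the letters in this window and not a measured binding site.

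Levels are given as TPM, a value scaled to transcript length and library size that the authors deposited, and values of a group are listed in order of replicate number. Overlap between groups is on the TPM scale unless TMM-scaled reads, scaled by edgeR's library factors, are named. Tests used the deposited counts, which take in every read between a gene's start and end, introns included (gene-span counts). Reads on exons alone, recovered from TPM, were the alternative measure. Ifit1, Ifit3b, Ifi27 and Cxcl10 lie inside another gene and are at 0 in the count table, so they were tested on exon reads only. Usp18 (2264 gene-span counts but 28704 exon reads over all libraries) and Dhx58 (4408 and 9419) also overlap other genes, and their gene-span values are uncertain. A gene was called when edgeR's quasi-likelihood test, or limma for the average over subsets, gave a Benjamini-Hochberg adjusted p under 0.05 over all genes tested. Nothing in the labels says that all libraries came from separate sorts, so the tests measure the spread between these libraries. Some member counts, as at an unadjusted p under 0.05 or with the other tool DESeq2, stand without the share of all genes. Such counts cannot be read as results about the list.

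Several facts of the libraries touch the results. The targeted genes did not check the label. Map2k2 (Mek2) was at 68.2 to 83.3 CPM (exon reads scaled to the library total) in Immature 1Mek2 libraries and 53.6 to 86.0 CPM in wt, and in MarginalZone it was higher in every 1Mek2 library, 183 to 285 CPM against 54.2 to 129.6 CPM in wt. On CPM, Map2k1 (Mek1) was lower in every 1Mek2 library than in any wt library in MarginalZone alone, 23.9 to 63.5 CPM against 72.1 to 245 CPM in wt. It overlapped in the other subsets on that scale, with 145 to 173 CPM in 1Mek2 and 118 to 187 CPM in wt in GC. On TPM Map2k1 was lower without overlap in Immature too, at 141, 54.3 and 89.0 TPM in 1Mek2 and 167, 173 and 144 TPM in wt. The Y-linked gene Ddx3y was at 12.1 to 85.8 CPM in every library of animals 562 (wt), 634 and 654 (both 1Mek2). In all other libraries used it was at most 0.0777 CPM. None of these animals gave an Immature or GC library. In the other subsets the sexes read this way were not balanced between genotypes, and the part of sex was not tested. By their values, and not by any label, 7 libraries of ABC, Follicular, MarginalZone and Plasma formed a type 1 and the other 19 a type 2. Type 1 libraries were ABC 1Mek2 replicate 3, Follicular 1Mek2 replicate 2, Follicular wt replicate 4, MarginalZone wt replicate 2, Plasma 1Mek2 replicate 2 and Plasma wt replicates 1 and 3. On the index that separates the types, type 1 lay at 4.70 to 5.69 and type 2 at -4.61 to 2.05, and Immature wt libraries lay at 3.37 to 4.99 and GC wt libraries at 3.00 to 4.72. Since 3 of 4 Follicular wt libraries were type 2, differences of Immature and of GC from Follicular cannot be told apart from this split, except against Follicular wt replicate 4. Summed markers of GC, MarginalZone and Plasma cells were highest in every library of their own subset, while those of Immature and of Follicular cells overlapped other subsets. The ABC marker sum was 113 CPM in 1 ABC 1Mek2 library, against 770 to 1910 CPM in the other ABC libraries. Summed over a list of 10 plasmacytoid dendritic cell genes, all detected, ABC libraries held 640 to 6984 CPM with the label 1Mek2 and 5561 to 6661 CPM in wt, against 579 to 877 CPM in Follicular wt libraries. Cd79a, part of the B cell receptor, was at 296 to 965 CPM in ABC wt libraries and at 2299 to 3897 CPM in Follicular wt libraries. In bulk samples fewer cells of a type and less RNA per cell cannot be told apart.

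All 37 members were detected in at least some libraries, and their levels spanned more than 3 orders of magnitude. Ifi35, which binds NMI and modulates the response, was the most abundant member and Oasl2, an oligoadenylate synthetase family member, the least, with means of 577 and 0.277 TPM over the 40 libraries. Bst2 (tetherin), a membrane protein that holds budding virus and also a surface marker of mouse plasmacytoid dendritic cells, averaged 213 TPM. Ifi27, a mitochondrial and nuclear membrane protein, averaged 109.6 TPM, the ubiquitin-like protein Isg15 95.8 TPM, the transcription factors Irf9 92.9 TPM and Irf7 57.7 TPM. The chemokine Cxcl10 was nearly absent, at a mean of 0.922 TPM, and was listed at 0 in all ABC wt libraries, all Follicular wt libraries and 3 of 4 Follicular 1Mek2 libraries. The median over the 37 members in a library was 8.73 to 14.7 TPM in Immature 1Mek2 libraries and 15.4 to 29.0 TPM in Immature wt libraries, without overlap. ABC libraries held 2.28 to 13.04 TPM in 1Mek2 and 0.144 to 2.85 TPM in wt, the lowest of the wt groups. ABC wt replicates 1 and 2 also had the fewest genes with an exon read, 13073 and 13428.

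**Figure D1:**
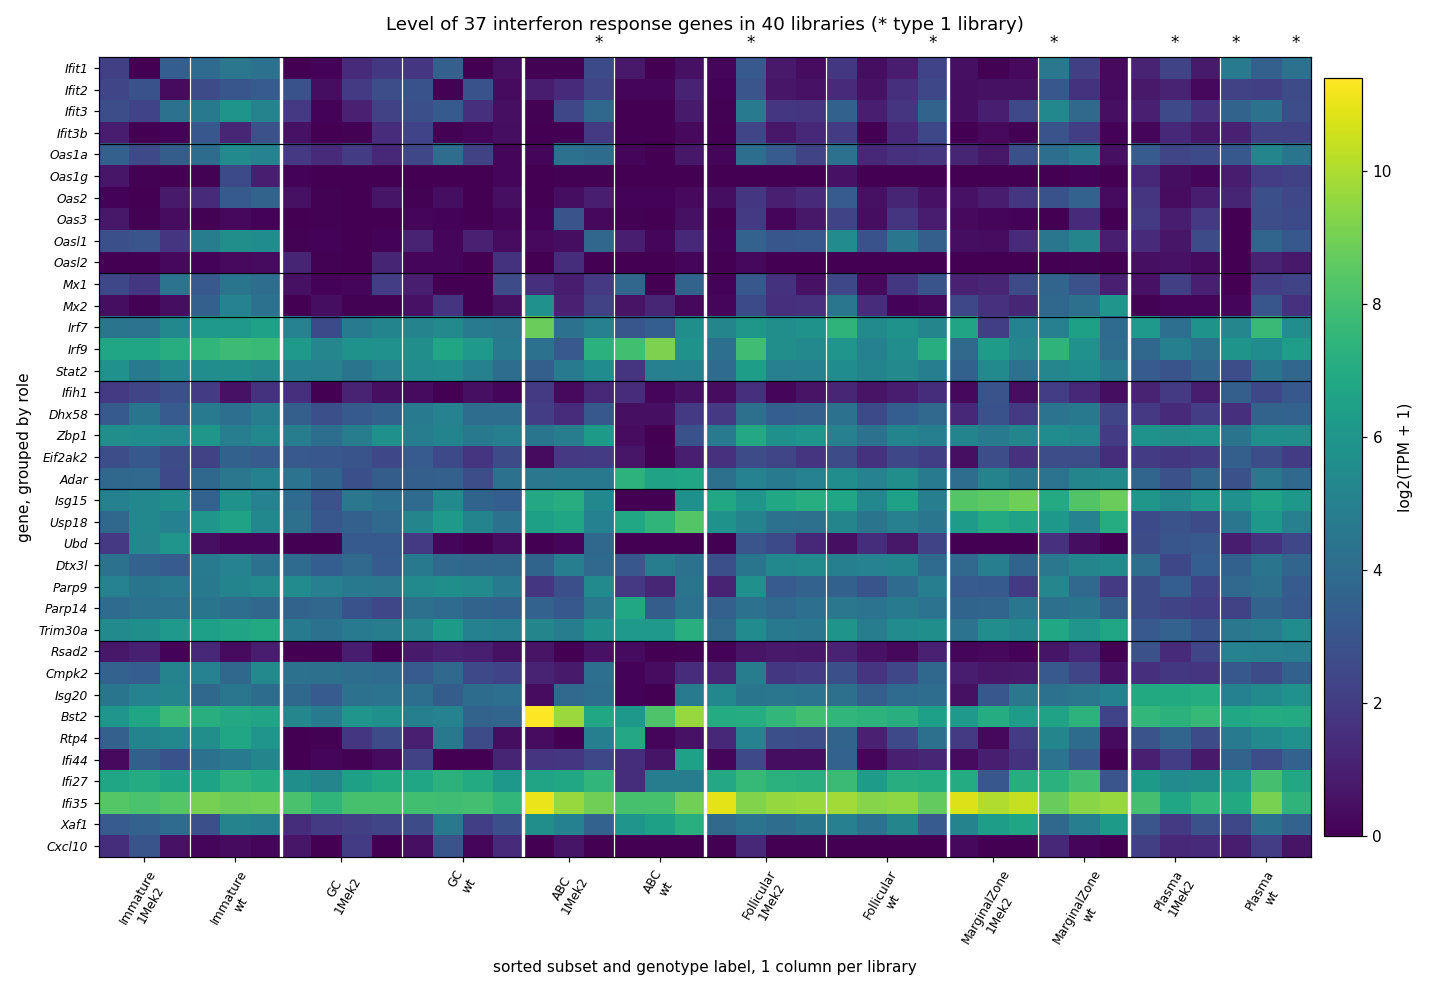
Level of each of the 37 genes (rows, grouped by role) in each of the 40 libraries (columns, grouped by subset and genotype label, 1Mek2 left of wt), as log2(TPM + 1). Ifi35, Bst2, Ifi27, Irf9 and Irf7 are bright in most columns, Mx2 and Oasl1 are brighter in wt than in 1Mek2 columns of Immature, and asterisks mark type 1 libraries.

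In wt cells the subsets held different parts of the list. Immature had the highest mean TPM of 15 members, Plasma of 9, ABC of 7, MarginalZone of 3, GC of 2 and Follicular of 1. The lowest mean was in ABC for 20 members, in GC for 11, in Plasma for 4, in Follicular for 2, and in no case in Immature or MarginalZone. Of all genes that reached 1 TPM in any library, ABC wt replicates 1 and 2 held only 27.3% and 32.3% at 1 TPM. The wt libraries of the other subsets held 45.1% to 62.0%. The low ABC means cannot be told apart from this lower detection. Most ABC, Follicular and MarginalZone wt libraries were type 2. All Immature and GC wt libraries lay above type 2 on the index, and these ranks were not adjusted for that split. Isg15 was highest in MarginalZone, with 312, 123 and 449 TPM, and its mean was lowest in ABC, with 0, 0 and 51.8 TPM. Its means of 33.5 ± 23.1 TPM in Immature (SD, n = 3) and 19.6 ± 15.4 TPM in GC (SD, n = 4) come next to ABC, and the libraries of these 3 subsets overlap. Irf9, the DNA-binding part of the complex with STAT2, was at 249.7, 574 and 57.7 TPM in ABC, 179.9, 223 and 210 TPM in Immature and 59.0, 46.2 and 83.5 TPM in Plasma. Irf7, which that complex induces and which then drives interferon genes, was at 37.5, 204 and 47.8 TPM in Plasma and 71.4, 69.3 and 90.1 TPM in Immature, and the single Plasma library at 204 TPM sets that order. Ifi27 was at 7.03 to 238 TPM in MarginalZone wt libraries and did not separate from Immature, GC, Follicular or Plasma. ABC stood below all wt libraries of Immature, GC, Follicular and Plasma, with 1.84, 27.3 and 27.7 TPM.

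**Figure D2:**
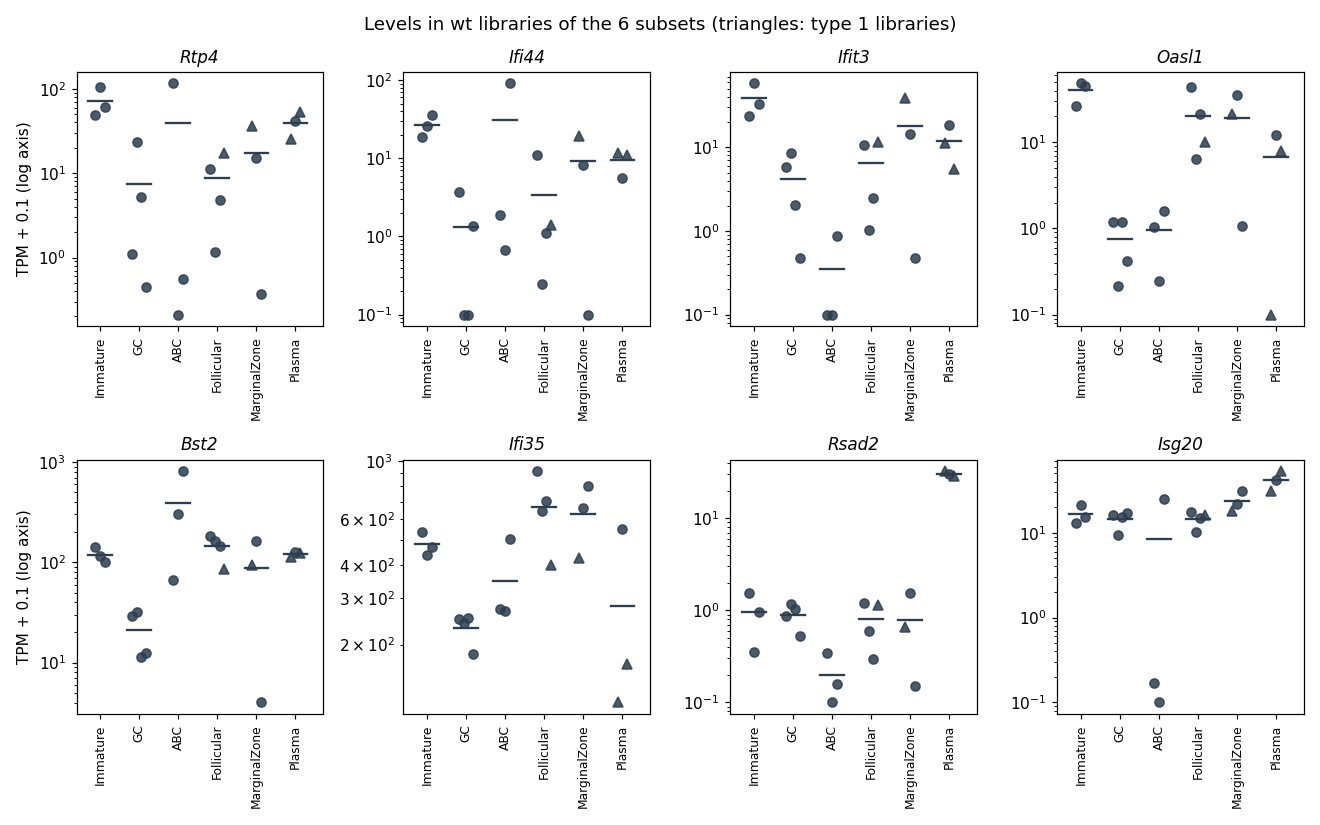
Level of 8 members in wt libraries of the 6 subsets, as TPM + 0.1 on a log axis. Each point is a library, triangles are type 1 libraries and lines are group means. Rtp4, Ifi44, Ifit3 and Oasl1 sit high in Immature, Bst2 and Ifi35 sit low in GC, and Rsad2 and Isg20 sit high in Plasma.

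Immature cells were set against Follicular cells in wt to ask where on the way to the resting mature B cell the list changes. Of 30 members tested, 6 were higher in Immature, namely Rtp4, Ifi44, Ifit3, Cmpk2, Irf9 and Trim30a, beside 32.3% of all genes tested. The poly(ADP-ribose) polymerase Parp14 was lower, at a log2 fold change of -0.78 ± 0.29 (adjusted p = 0.0472), beside 7.15% of all genes. The members' count higher was thus below the share among all genes, while their median log2 fold change was 0.68 against 0.47 over all genes. On exon reads the called members were Ifit1, Rtp4 and Trim30a, 3 of 33 higher, beside 4.71% of all genes. Their exon median was 1.01 against 0.12 over all genes, and all 4 IFIT members had a positive fold change.

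Rtp4, a chaperone of receptors that also binds viral RNA, was at 49.2, 106 and 60.5 TPM in Immature libraries and 11.2, 1.06, 4.70 and 17.3 TPM in Follicular libraries, without overlap, a log2 fold change of 2.82 ± 0.69 (adjusted p = 0.00492). Ifi44, an antiviral protein, was at 18.8, 25.4 and 36.2 TPM in Immature and 10.9, 0.143, 1.02 and 1.31 TPM in Follicular, a log2 fold change of 3.07 ± 0.92 (adjusted p = 0.0173). Ifit3, which stabilises the RNA-binding protein IFIT1, was at 23.8, 58.1 and 33.2 TPM in Immature and 10.7, 0.929, 2.41 and 11.6 TPM in Follicular, a log2 fold change of 2.38 ± 0.76 (adjusted p = 0.0246). All 3 were higher in every Immature library than in any Follicular library. Cmpk2, a mitochondrial nucleotide kinase, was at 32.5, 13.5 and 40.6 TPM in Immature and 5.83, 2.29, 4.33 and 13.1 TPM in Follicular, a log2 fold change of 1.93 ± 0.62 (adjusted p = 0.0256). Irf9 was at 61.0, 30.9, 47.9 and 138 TPM in Follicular, below every Immature library listed above, a log2 fold change of 1.34 ± 0.50 (adjusted p = 0.0491). Trim30a, a ubiquitin ligase of the TRIM family that damps Toll-like receptor signalling in mouse, was at 86.2, 99.8 and 121 TPM in Immature and 58.3, 27.3, 44.1 and 50.6 TPM in Follicular, a log2 fold change of 0.79 ± 0.29 (adjusted p = 0.047). In each of these 3 genes the subsets did not overlap either. Ifit1, which binds viral RNA lacking a host cap, was at 14.8, 22.0 and 18.1 TPM in Immature and 2.61, 0.354, 0.882 and 3.88 TPM in Follicular, and on exon reads its log2 fold change was 3.23 ± 0.76 (adjusted p = 0.0339). Ifit1 was higher in every Immature library too, and the gap was narrowest in Cmpk2.
The count of called members was 4 without Immature wt replicate 2, 3 without Immature wt replicate 3, 2 without Follicular wt replicate 3 and 12 without Follicular wt replicate 4. Irf9 kept its call in 1 of 13 alternatives and Trim30a in 2 of 13, while Rtp4 kept it in 11 of 13.

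GC cells divide fast and mutate their antibody genes. Set against the same Follicular wt libraries, 7 of 30 members fell in GC, namely Bst2, Ifi35, Adar, Parp14, Oasl1, Irf7 and Isg15, beside 10.5% of all genes, and no member rose. The member median was -0.71 against 0.04 over all genes tested. Bst2 was at 29.2, 32.2, 11.4 and 12.4 TPM in GC and 182, 164, 144 and 85.5 TPM in Follicular, without overlap, a log2 fold change of -2.99 ± 0.42 (adjusted p = 0.000298). Ifi35 was at 249.5, 242, 252 and 184 TPM in GC and 913, 642, 703 and 402 TPM in Follicular, a log2 fold change of -1.54 ± 0.31 (adjusted p = 0.0032). These 2 abundant members separated the subsets completely. Adar, which edits adenosine in double-stranded RNA, was at 9.89, 10.4, 5.71 and 18.4 TPM in GC and 46.8, 32.0, 48.6 and 25.4 TPM in Follicular, a log2 fold change of -1.52 ± 0.35 (adjusted p = 0.00609). Oasl1, a repressor of Irf7 translation in mouse, was at 1.10, 0.114, 1.10 and 0.320 TPM in GC and 44.2, 6.28, 21.2 and 9.87 TPM in Follicular, a log2 fold change of -3.04 ± 0.80 (adjusted p = 0.0132). In both genes every GC library was below every Follicular library. Irf7 was at 33.7, 40.4, 23.9 and 22.3 TPM in GC and 168, 43.2, 56.2 and 37.2 TPM in Follicular, a log2 fold change of -1.41 ± 0.45 (adjusted p = 0.0361), with overlap on TPM but not on TMM-scaled gene-span counts. Isg15, which is conjugated to proteins like ubiquitin, was at 14.8, 42.5, 11.6 and 9.58 TPM in GC and 108, 39.5, 90.2 and 28.8 TPM in Follicular, a log2 fold change of -1.85 ± 0.63 (adjusted p = 0.0457), and overlapped on TPM alone in the same way.
On exon reads 6 of 32 members were called, beside 18.3% of all genes. They were Bst2, Oasl1, Ifi35, Adar and Oas3, which were lower, and Parp9, which was higher. Without Follicular wt replicate 1 the count was 4. Against Follicular wt replicate 4 alone, the type 1 library, no member was called on either measure, in a test with a single library on that side. The gene-span log2 fold changes were then -2.84 for Bst2, -2.27 for Oasl1, -1.42 for Ifi35, -1.36 for Adar, -1.22 for Isg15 and -0.99 for Irf7.

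GC and Immature wt libraries share 3 animals. Of 32 members 7 fell in GC, Oasl1, Ifi44, Rtp4, Mx2, Ifit3, Mx1 and Bst2, beside 0.67% of all genes. On exon reads 8 of 32 fell, Oasl1, Bst2, Irf9, Ifit3, Mx2, Oas2, Ifi35 and Trim30a, beside 2.25% of all genes, and 31 of 32 fold changes were negative, with a median of -1.24 against -0.01 over all genes. On TMM-scaled exon reads 14 of 32 members were lower in every GC library than in any Immature library, beside 9.48% of all genes.

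Mx2, a cytoplasmic antiviral GTPase in mouse, was at 0.458, 2.40, 0 and 0.419 TPM in GC and 10.3, 32.5 and 18.4 TPM in Immature, a log2 fold change of -3.66 ± 0.95 (adjusted p = 0.0074). Mx1, a nuclear GTPase in mouse that blocks influenza virus, was at 0.925, 0, 0 and 5.21 TPM in GC and 7.97, 20.7 and 15.8 TPM in Immature, a log2 fold change of -3.19 ± 0.93 (adjusted p = 0.0288). Both were lower in every GC library than in any Immature library, and Mx1 was at 0 in 2 GC libraries. Oasl1 was at 26.5, 48.2 and 45.1 TPM in Immature, far above the GC libraries given above, a log2 fold change of -3.59 ± 0.74 (adjusted p = 0.000191). Ifi44 was at 3.64, 0, 0 and 1.25 TPM in GC, against 18.8 to 36.2 TPM in Immature, a log2 fold change of -3.71 ± 0.83 (adjusted p = 0.001). Ifit3 was at 5.80, 8.41, 1.96 and 0.379 TPM in GC, against 23.8 to 58.1 TPM in Immature, a log2 fold change of -2.87 ± 0.76 (adjusted p = 0.00948). The subsets did not overlap in any of the 3. Rtp4 was at 0.989, 23.1, 5.16 and 0.344 TPM in GC, against 49.2 to 106 TPM in Immature, a log2 fold change of -2.23 ± 0.56 (adjusted p = 0.00528), and Bst2 was at 142, 117 and 99.8 TPM in Immature, a log2 fold change of -2.33 ± 0.72 (adjusted p = 0.049), again without overlap.
Of the called members only Oasl1 kept its call in all 13 alternatives. The count was 2 without Immature wt replicate 2, 1 without Immature wt replicate 3 and 4 without GC wt replicate 1. With the animal as a block it was 4 on gene-span counts and 14 on exon reads.

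Plasma cells secrete antibody. Against Follicular wt libraries, 7 of 33 members rose in Plasma, Rsad2, Isg20, Ifih1, Oasl2, Oas1g, Rtp4 and Zbp1, beside 12.2% of all genes, and no member fell. The member median was 1.07 against -0.01 over all genes. On exon reads 5 of 35 rose, Rsad2, Isg20, Ifih1, Ifit1 and Rtp4, beside 12.1% of all genes. Rsad2 (viperin), an enzyme that makes a chain-terminating nucleotide, was at 32.4, 29.8 and 28.5 TPM in Plasma and 1.10, 0.493, 0.196 and 1.04 TPM in Follicular, a log2 fold change of 6.27 ± 0.56 (adjusted p = 0.000281). Isg20, an RNA exonuclease, was at 31.3, 41.4 and 53.1 TPM in Plasma and 17.5, 10.1, 14.9 and 16.0 TPM in Follicular, a log2 fold change of 2.42 ± 0.35 (adjusted p = 0.00192). The cytoplasmic RNA sensor Ifih1 (MDA5) was at 9.82, 4.59 and 7.75 TPM in Plasma and 1.31, 0.497, 0.863 and 1.79 TPM in Follicular, a log2 fold change of 3.32 ± 0.51 (adjusted p = 0.00248). In none of these 3 did the groups overlap, and each kept its call in all 13 alternatives.
Oas1g and Oasl2, of the oligoadenylate synthetase family, were low. Oas1g was at 0.828, 3.18 and 3.62 TPM in Plasma and 0.476, 0, 0 and 0 TPM in Follicular, a log2 fold change of 5.93 ± 1.49 (adjusted p = 0.0234), and Oasl2 was at 0.0260, 1.22 and 0.742 TPM in Plasma and listed at 0 in all 4 Follicular libraries, a log2 fold change of 4.17 ± 0.99 (adjusted p = 0.0177). These fold changes depend on the prior count of the fit and are not bounds. Rtp4 was at 25.2, 41.0 and 52.8 TPM in Plasma, a log2 fold change of 2.82 ± 0.75 (adjusted p = 0.029). Zbp1, a sensor of Z-form nucleic acid, rose by 1.27 ± 0.38 (adjusted p = 0.0453), and Ifit1 by 3.83 ± 0.81 on exon reads (adjusted p = 0.0113). The count was 3 without Follicular wt replicate 3 and 3 without Plasma wt replicate 3. Plasma wt libraries held a macrophage and monocyte gene sum of 1964 to 3420 CPM over 11 genes and a T cell gene sum of 3791 to 7743 CPM over 10 genes, against 108 to 324 and 335 to 817 CPM in Follicular wt libraries. Neutrophil genes (9) summed to 1596 to 5970 CPM in Plasma wt and 0 to 1.76 CPM in Follicular wt libraries, and NK cell genes (7) to 977 to 2110 CPM in Plasma wt and 10.5 to 38.7 CPM in Follicular wt libraries. The part of those cells in these rises was not tested.

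ABC, a subset that gathers with age and chronic stimulation, showed an uneven picture against Follicular in wt. Of 30 members, Xaf1, Bst2 and Trim30a rose, 3 beside 11.9% of all genes, and on exon reads Usp18, Xaf1, Adar and Irf9 rose, 4 of 33 beside 10.4%. The shares are near the background and say nothing particular about the list. Xaf1, a pro-apoptotic partner of XIAP, was at 63.6, 89.4 and 145 TPM in ABC and 30.04, 18.5, 35.3 and 8.78 TPM in Follicular, a log2 fold change of 2.50 ± 0.63 (adjusted p = 0.0227). Bst2 was at 66.8, 303 and 810.5 TPM in ABC, overlapping Follicular on TPM but not on TMM-scaled counts, a log2 fold change of 2.10 ± 0.67 (adjusted p = 0.0466). Trim30a was at 69.7, 68.2 and 139 TPM in ABC, above every Follicular library, a log2 fold change of 1.94 ± 0.63 (adjusted p = 0.0493). Other members were at or near 0 in ABC wt replicates 1 and 2, among them Isg15, Isg20, Ifit3 and Cmpk2, and these 2 libraries had the fewest genes with an exon read, 13073 and 13428. The count of called members was 0 without any one of the Follicular wt libraries, 2 without ABC wt replicate 2, 16 without ABC wt replicate 3, and 0 with the animal as a block. Beside these values stand the plasmacytoid dendritic cell genes of the ABC wt libraries, such as Siglech at 2377, 2750 and 2911 CPM. Their part in the differences was not tested.

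MarginalZone cells, which answer blood-borne antigen, held no member that passed the test against Follicular cells, 0 of 31 called beside 0.34% of all genes. At an unadjusted p under 0.05 there were 2 members, and DESeq2 called 1. The lowest p was that of Isg15, at a log2 fold change of 2.15 ± 0.54 (adjusted p = 0.187), with every MarginalZone library above every Follicular library. The comparisons with Follicular share the same 4 Follicular wt libraries and so are not independent of each other.

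Between genotypes, the libraries labelled 1Mek2 were set against wt within each subset, to ask what the mutant genotype changes. In Immature cells 3 of 33 members were called, Ubd, which was higher, and Mx2 and Oasl1, which were lower, beside 0.933% of all genes. Ubd (FAT10), a ubiquitin-like protein that interferon gamma and TNF also induce, was at 2.68, 37.8 and 62.8 TPM in 1Mek2 libraries and 0.393, 0.147 and 0.146 TPM in wt, a log2 fold change of 7.43 ± 1.10 (adjusted p = 1.56e-05). Mx2 was at 0.345, 0.0379 and 0.353 TPM in 1Mek2 and 10.3, 32.5 and 18.4 TPM in wt, a log2 fold change of -4.31 ± 0.83 (adjusted p = 0.000862). Oasl1 was at 5.79, 7.06 and 2.32 TPM in 1Mek2 and 26.5, 48.2 and 45.1 TPM in wt, a log2 fold change of -2.58 ± 0.57 (adjusted p = 0.00571). The genotypes did not overlap in any of the 3, and Ubd stands out among them by the spread of its 1Mek2 libraries.

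On exon reads Mx2 was the only member called in Immature cells, 1 of 34 beside 0.342% of all genes, at -6.16 ± 0.99 (adjusted p = 0.0349), while Ubd had an adjusted p of 0.0578 and Oasl1 of 0.068. The rest of the list leaned the same way as Mx2 and Oasl1. On exon reads 25 of 34 fold changes were negative, with a median of -0.63 against -0.05 over all genes. On TMM-scaled exon reads every 1Mek2 library was below every wt library in 13 of 34 members, beside 9.65% of all genes. In 3, Ubd, Isg20 and Ifih1, every 1Mek2 library was above on that scale, beside 11% of all genes. On TPM Isg20 and Ifih1 overlapped. The 13 were Ifit1, Ifit3 and Ifit3b, Oas1a, Oas2 and Oasl1, Mx2, the transcription factors Irf7 and Irf9, and Ifi35, Ifi44, Rtp4 and Trim30a. Irf7 was at 19.8, 19.4 and 38.5 TPM in 1Mek2 and 71.4, 69.3 and 90.1 TPM in wt, an exon log2 fold change of -1.32 ± 0.37 (adjusted p = 0.147). Irf9 was at 103, 102 and 136 TPM in 1Mek2, against 180 to 223 TPM in wt, an exon log2 fold change of -0.59 ± 0.20 (adjusted p = 0.228). Neither passed the test. On gene-span counts the member median was -0.20 against -0.17 over all genes, so that the lean was not seen on that measure.

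Immature 1Mek2 and wt libraries also differed in markers of other B cell stages. The plasma cell marker sum over 7 genes was 3151 to 7015 CPM in 1Mek2 and 552 to 1496 CPM in wt, and the GC marker sum over 8 genes was 1608 to 1799 CPM in 1Mek2 and 282 to 807 CPM in wt. Long neuronal genes, read as a measure of background, summed to 296 to 1484 CPM in 1Mek2 and 854 to 2730 CPM in wt. With that sum as a covariate no member was called, the log2 fold changes then being 6.20 ± 1.60 for Ubd, -3.48 ± 0.47 for Mx2 and -2.91 ± 0.56 for Oasl1. Without Immature wt replicate 3 Oasl1 missed the threshold (adjusted p = 0.0516). The part of the marker differences in these results was not tested.

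**Figure D3:**
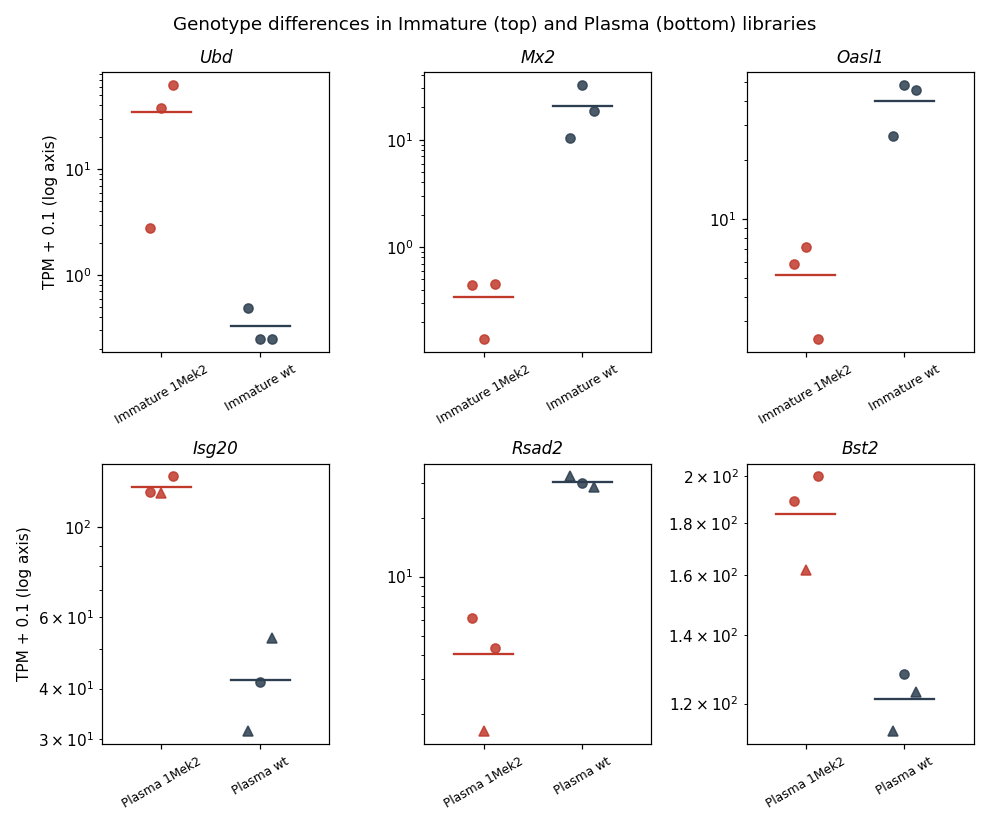
Level in each library labelled 1Mek2 (left) and wt (right) of Ubd, Mx2 and Oasl1 in Immature cells (top) and of Isg20, Rsad2 and Bst2 in Plasma cells (bottom), as TPM + 0.1 on a log axis. Points are libraries, triangles are type 1 libraries and lines are means, and no panel shows overlap between genotypes.

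In Plasma cells no member was called, 0 of 33 beside 0.0605% of all genes. At an unadjusted p under 0.05 there were 7 members, and DESeq2 called 5. The share of all genes at these settings is not given, so these counts say nothing particular about the list. The 3 members with the lowest p separated the genotypes fully. Isg20 was at 122, 121 and 133 TPM in 1Mek2 and 31.3, 41.4 and 53.1 TPM in wt, a log2 fold change of 2.47 ± 0.41 (adjusted p = 0.068). Rsad2 was at 6.05, 1.53 and 4.21 TPM in 1Mek2 and 32.4, 29.8 and 28.5 TPM in wt, a log2 fold change of -2.22 ± 0.43 (adjusted p = 0.0712). Bst2 was at 189, 162 and 199.7 TPM in 1Mek2 and 113, 128 and 123 TPM in wt, a log2 fold change of 1.45 ± 0.36 (adjusted p = 0.107). With library type as a term, Isg20 (adjusted p = 0.00637), Rsad2 (0.0213) and Bst2 (0.0122) passed the threshold, and 3 members in all were called.
The median over members in each Plasma library was 4.13 to 5.00 TPM in 1Mek2 and 9.82 to 17.8 TPM in wt, without overlap. That gap is on the TPM scale. On TMM-scaled exon reads 4 of 36 members, Ifit2, Rsad2, Rtp4 and Usp18, were lower without overlap, beside 10.2% of all genes, and 6, Bst2, Cxcl10, Isg15, Isg20, Ubd and Zbp1, were higher, beside 12.8%. The exon median was -0.37 against -0.03 over all genes. Ifit1 was at 1.13, 4.03 and 0.774 TPM in 1Mek2 and 24.2, 10.2 and 18.5 TPM in wt, an exon log2 fold change of -2.19 ± 0.85 (adjusted p = 0.288). Usp18, the protease that removes ISG15 and blocks the receptor, was at 4.90, 6.58 and 5.02 TPM in 1Mek2 and 21.0, 67.1 and 30.1 TPM in wt, an exon log2 fold change of -1.83 ± 0.51 (adjusted p = 0.162). The macrophage and monocyte gene sum was 1209 to 1625 CPM in 1Mek2 and 1964 to 3420 CPM in wt, and the T cell gene sum was 2220 to 3243 CPM in 1Mek2 and 3791 to 7743 CPM in wt. Neutrophil genes summed to 1927 to 9249 CPM in 1Mek2 and 1596 to 5970 CPM in wt, and NK cell genes to 709 to 951 CPM in 1Mek2 and 977 to 2110 CPM in wt. Their part in these values was not tested.

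In ABC no member was called, 0 of 27 beside 0% of all genes. At an unadjusted p under 0.05 there were 8 members, and DESeq2 called 3, again without the share of all genes beside these counts. Ifi35 was at 2122, 804 and 480.5 TPM in 1Mek2 and 272, 269 and 506 TPM in wt, a log2 fold change of 2.46 ± 0.85 (adjusted p = 0.16), and Irf7 was at 451, 18.8 and 30.03 TPM in 1Mek2 and 7.41, 9.75 and 51.0 TPM in wt, a log2 fold change of 4.11 ± 1.45 (adjusted p = 0.162). Both overlapped on TPM, and a single 1Mek2 library was far above the rest in each. Zbp1 was at 20.8, 27.4 and 73.9 TPM in 1Mek2 and 0.282, 0 and 6.32 TPM in wt, without overlap, a log2 fold change of 5.00 ± 1.78 (adjusted p = 0.165). Bst2, at 2709, 813 and 112 TPM in 1Mek2 and 66.8, 303 and 810.5 TPM in wt, and Irf7 were highest in the 1Mek2 library with the most Siglech, 1692 CPM, against 420 and 3.92 CPM in the other two. Siglech was at 2377 to 2911 CPM in ABC wt libraries, and Cd79a at 2464 to 4281 CPM in 1Mek2 and 296 to 965 CPM in wt, so that both markers separated the genotypes. The highest Zbp1 was in ABC 1Mek2 replicate 3, a type 1 library with a Follicular marker sum of 4991 CPM, against 399 and 414 CPM in the other ABC 1Mek2 libraries, and with the ABC marker sum of 113 CPM given above. The part of these marker differences was not tested.

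In GC no member was called, 0 of 30 beside 0.054% of all genes, with 4 at an unadjusted p under 0.05 and 1 called by DESeq2. Cmpk2 was at 18.1, 15.8, 14.9 and 17.6 TPM in 1Mek2 and 9.03, 14.0, 4.67 and 3.88 TPM in wt, a log2 fold change of 1.57 ± 0.49 (adjusted p = 0.409). Bst2 was at 37.2, 61.0, 51.7 and 24.5 TPM in 1Mek2, against 11.4 to 32.2 TPM in wt, a log2 fold change of 1.75 ± 0.60 (adjusted p = 0.409), and Oasl1 was at 0.0591, 0, 0.0889 and 0.0762 TPM in 1Mek2, against 0.114 to 1.10 TPM in wt, a log2 fold change of -3.10 ± 1.12 (adjusted p = 0.409). Cmpk2 and Oasl1 did not overlap on TPM, and Bst2 did.
In Follicular cells no member was called, 0 of 31 beside 0% of all genes, with 5 at an unadjusted p under 0.05 and 1 called by DESeq2. Those 5, Zbp1, Isg15, Isg20, Bst2 and Ifi35, were higher in every 1Mek2 library than in any wt library on TMM-scaled counts, 5 of 31 beside 4.86% of all genes. Zbp1 was at 25.2, 118, 52.0 and 61.9 TPM in 1Mek2 and 29.9, 18.9, 34.3 and 29.0 TPM in wt, a log2 fold change of 1.74 ± 0.45 (adjusted p = 0.42). Isg15 was at 114, 60.9, 109.7 and 135 TPM in 1Mek2 and 108, 39.5, 90.2 and 28.8 TPM in wt, a log2 fold change of 1.37 ± 0.41 (adjusted p = 0.42). Isg20 was at 38.6, 20.3, 21.2 and 19.2 TPM in 1Mek2 and 17.5, 10.1, 14.9 and 16.0 TPM in wt, a log2 fold change of 1.41 ± 0.43 (adjusted p = 0.42). On TPM only Isg20 of these 3 separated the genotypes.
In MarginalZone no member was called, 0 of 28 beside 0% of all genes, with 3 at an unadjusted p under 0.05 and 0 called by DESeq2. Ifi35 was at 1790, 1046 and 1356 TPM in 1Mek2 and 661, 426 and 799.8 TPM in wt, a log2 fold change of 1.60 ± 0.47 (adjusted p = 0.519). Mx2 was at 4.61, 2.05 and 1.31 TPM in 1Mek2 and 17.4, 13.6 and 61.6 TPM in wt, a log2 fold change of -2.40 ± 0.94 (adjusted p = 0.532). Both separated the genotypes, upward in Ifi35 and downward in Mx2. Xaf1 was at 33.1, 82.9 and 103 TPM in 1Mek2 and 28.4, 13.3 and 73.4 TPM in wt, a log2 fold change of 1.45 ± 0.64 (adjusted p = 0.551), with overlap.

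Averaged over the 6 subsets, with libraries of an animal treated as related, 3 of 33 members rose in 1Mek2, Zbp1, Isg15 and Ifi35, and none fell, beside 6.06% of all genes. The median log2 fold change was -0.07 for members and -0.12 over all genes. Zbp1 rose by 1.86 ± 0.32 on the log2 scale (adjusted p = 0.000187), Isg15 by 1.89 ± 0.39 (adjusted p = 0.0016) and Ifi35 by 0.92 ± 0.23 (adjusted p = 0.0111). Zbp1 was at 55.8, 49.3 and 54.2 TPM in 1Mek2 Plasma libraries and 19.7, 50.4 and 49.3 TPM in wt, and at 34.5, 25.0 and 36.0 TPM in 1Mek2 MarginalZone libraries and 38.5, 45.8 and 3.02 TPM in wt. These overlap on TPM in both subsets, and on TMM-scaled reads Zbp1 was higher without overlap in Plasma. Isg15 was at 118, 136 and 38.8 TPM in 1Mek2 ABC libraries, against 0, 0 and 51.8 TPM in wt. Immature libraries overlapped in both genes, with Zbp1 at 48.8, 45.5 and 43.0 TPM in 1Mek2 and 64.2, 28.6 and 39.2 TPM in wt and Isg15 at 31.2, 39.0 and 49.5 TPM in 1Mek2 and 11.04, 57.2 and 32.1 TPM in wt. Ifi35 was lower in every Immature 1Mek2 library, with 339.9, 285 and 334 TPM against 537, 438 and 472 TPM in wt, and higher in every MarginalZone 1Mek2 library. Without the ABC libraries Isg15 had a log2 fold change of 0.92 (adjusted p = 0.0828). Ifi35 missed the threshold without animal 323 (adjusted p = 0.0528), 358 (0.0612) or 654 (0.05), and on exon reads, and without animal 634 the count was 5.

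On exon reads 3 of 37 members were called in the average, beside 4.22% of all genes. Zbp1 and Isg15 rose again, and Trim30a fell by 0.78 ± 0.21 on the log2 scale (adjusted p = 0.0238). Without the ABC libraries none of the 3 was called on exon reads, with log2 fold changes of 0.87 for Zbp1 (adjusted p = 0.0719) and 0.76 for Isg15 (adjusted p = 0.236). Trim30a was at 42.2, 49.9 and 68.6 TPM in Immature 1Mek2 libraries and 86.2, 99.8 and 121 TPM in wt. In Plasma it was at 8.03, 11.01 and 6.28 TPM in 1Mek2 and 21.9, 26.9 and 45.5 TPM in wt. Every 1Mek2 library was below every wt library in 5 of the 6 subsets on TPM, all but Follicular, and in Immature, GC and ABC on TMM-scaled exon reads. Its gene-span log2 fold change was -0.59 ± 0.22 (adjusted p = 0.11).

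**Figure D4:**
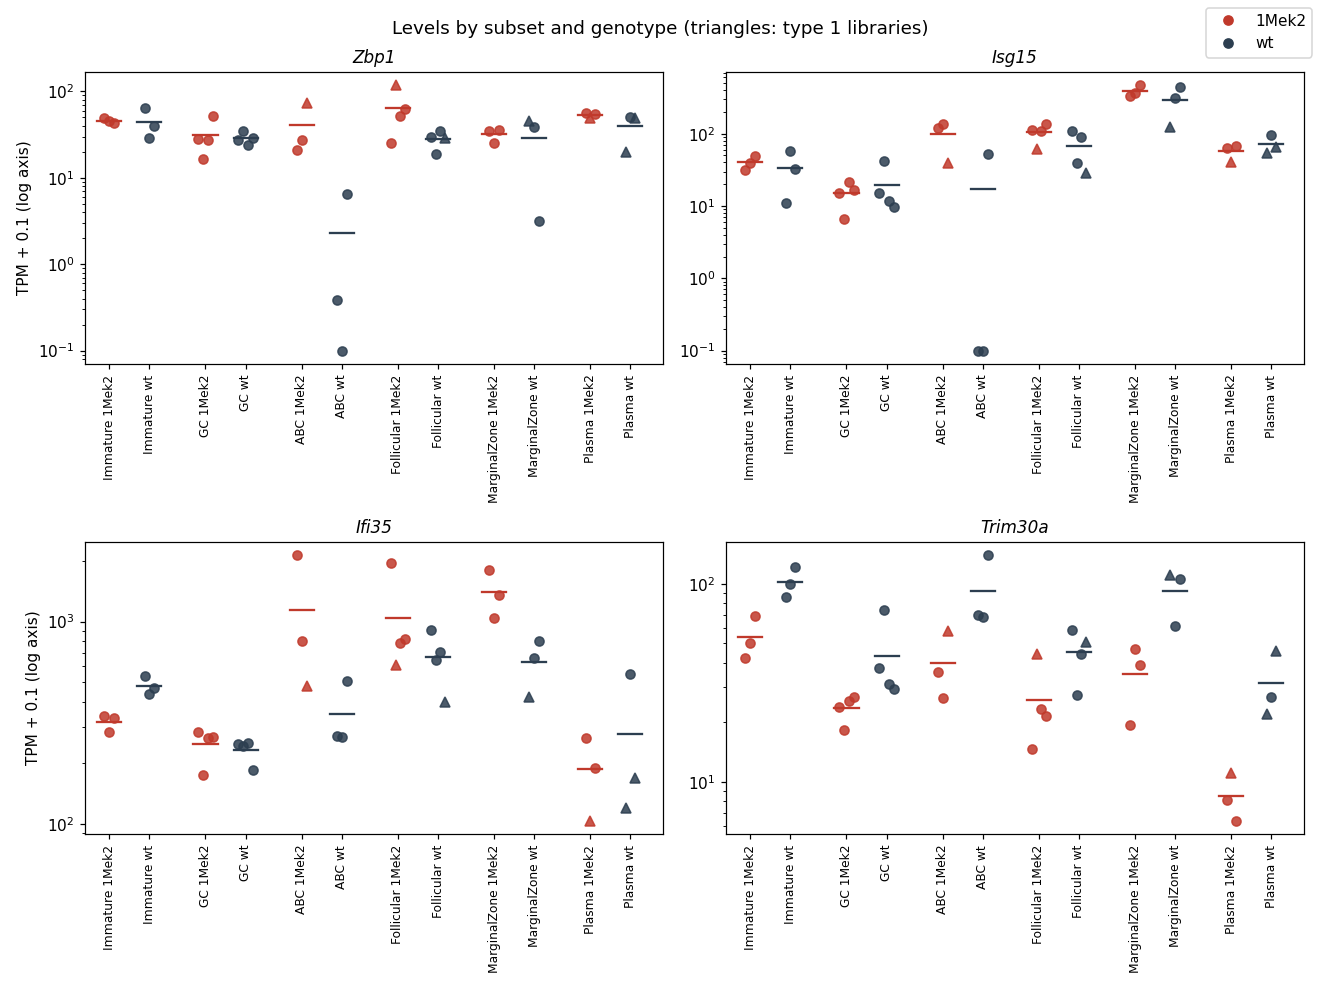
Level of Zbp1, Isg15, Ifi35 and Trim30a in every library, by subset and genotype label (1Mek2 red and left of wt, dark), as TPM + 0.1 on a log axis. Points are libraries, triangles are type 1 libraries and lines are means. Trim30a means lie lower in 1Mek2 in all 6 subsets, and the gaps of Zbp1 and Isg15 are widest in ABC, where wt libraries reach 0.

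Whether the genotype difference changed with the subset was tested over all 12 groups. The fit held no term for the animal, so libraries of the same animal were treated as independent. No member was called, 0 of 33 beside 2% of all genes, with 9 at an unadjusted p under 0.05. No other tool was run for this test, and on exon reads 0 of 37 were called, with 12 at an unadjusted p under 0.05. Mx2 came nearest, with an adjusted p of 0.0809, its fold change being -4.31 ± 0.83 in Immature, -2.40 ± 0.94 in MarginalZone and 5.05 ± 1.91 in ABC. In ABC it was at 53.2, 1.08 and 3.65 TPM in 1Mek2 and 0.503, 1.34 and 0.188 TPM in wt. A single 1Mek2 library, the one with the most Siglech, was far above the rest. The ABC genotypes overlapped on TPM and on TMM-scaled exon reads, but not on TMM-scaled gene-span counts.

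**Figure D5:**
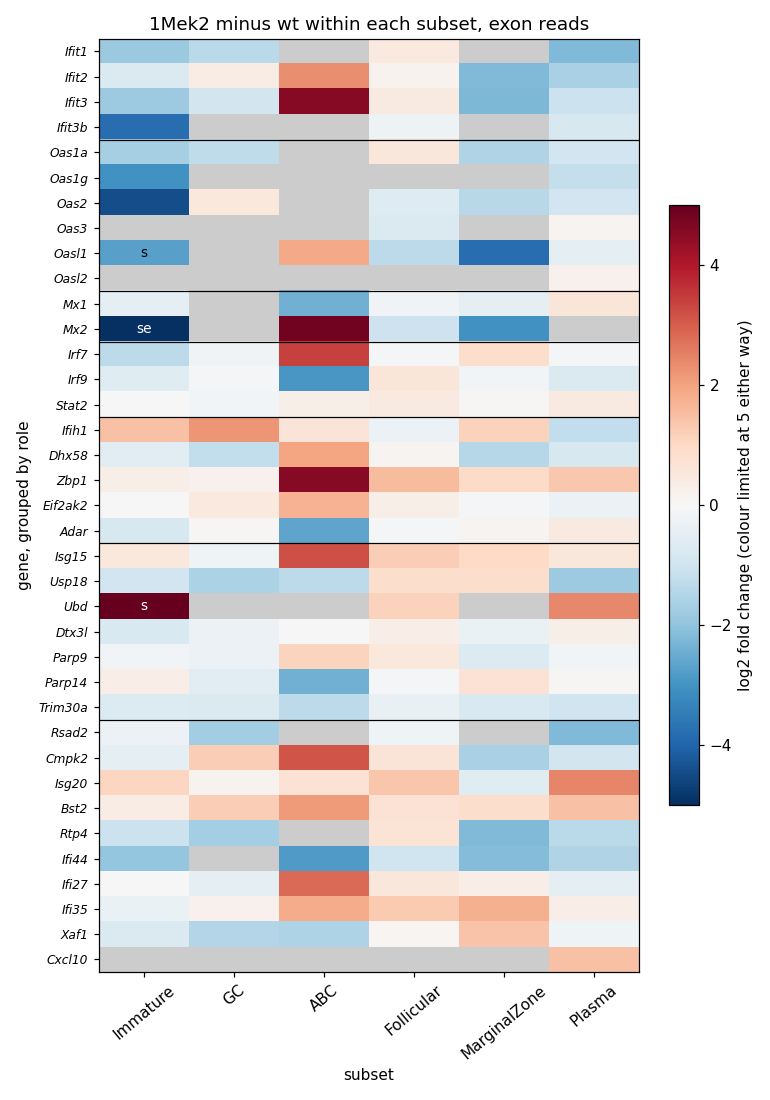
Log2 fold change, 1Mek2 minus wt, of each member (rows, grouped by role) in each subset (columns) on exon reads, with colours limited at 5 either way and grey where the gene was not tested. Red is higher and blue lower in 1Mek2, and the letters s and e mark a call on gene-span counts and on exon reads, found only in Immature for Mx2, Oasl1 and Ubd.

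The genes upstream of the list were read from lists chosen with the members. Of 21 interferon genes none had enough gene-span counts to be tested in Immature, GC, ABC, Follicular or MarginalZone libraries between genotypes, and 1 had in Plasma. Ifnb1 did not exceed 0.334 TPM in any library and was listed at 0 in all ABC, Follicular, MarginalZone and Plasma libraries. Ifnar1 was at 16.4, 29.1, 11.3 and 6.90 TPM in GC wt libraries and 81.8, 86.3 and 75.1 TPM in Immature wt libraries, a log2 fold change of -1.95 ± 0.49 (adjusted p = 0.00541), without overlap. Ifnar2 was at 1.45, 10.98, 2.10 and 1.95 TPM in GC and 19.5, 13.3, 15.7 and 21.7 TPM in Follicular, a log2 fold change of -2.80 ± 0.45 (adjusted p = 0.000776). Ifnar1 was also among the called genes that were lower in GC than in Follicular cells. Of 20 receptor and signalling genes, 6 fell in GC against Follicular, beside 10.5% of all genes, and 1 rose. In ABC against Follicular 2 of these genes rose, Ifnar2 and Irf8, beside 11.9% of all genes. The ABC count says nothing particular about that list. Among 17 nucleic acid sensing genes tested, the endosomal receptors Tlr7 and Tlr9 fell in GC against Follicular with log2 fold changes of -2.65 ± 0.59 and -2.65 ± 0.49. They rose in ABC by 4.45 ± 0.80 and 2.50 ± 0.63. Tlr9 was at 22.2, 11.6, 7.70 and 6.97 TPM in GC wt libraries and 69.2, 87.4, 114 and 14.1 TPM in Follicular wt libraries. The last of these is the type 1 library and lies within the GC range. The fall of Tlr9 in GC therefore cannot be told apart from the split of library types. Tlr7 was at 17.8, 2.53 and 22.5 TPM in ABC wt libraries and 6.59, 2.18, 5.53 and 5.06 TPM in Follicular, with overlap on that scale, and both genes are also strongly expressed by plasmacytoid dendritic cells.

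Interferon gamma response genes were read beside the type I list. In the average over subsets 7 of 23 rose in 1Mek2 and none fell, beside the 6.06% of all genes called in either direction. Of the 23 fold changes 22 were positive, with a median of 0.71 against -0.12 over all genes. The lowest p were those, with their log2 fold changes, of the immunoproteasome subunit Psmb8 (1.67 ± 0.24, adjusted p = 2.23e-05), the tryptophan-degrading enzyme Ido1 (3.27 ± 0.48, adjusted p = 2.29e-05), the GTPase Iigp1 (2.78 ± 0.52, adjusted p = 0.000564) and the subunit Psmb9 (1.31 ± 0.26, adjusted p = 0.000944). In Immature cells 3 of 22 rose, beside 0.933% of all genes called in either direction. Iigp1 rose by 4.43 ± 0.83, Socs1, an inhibitor of the receptor kinases, by 2.33 ± 0.59, and Tgtp2 rose too. On exon reads none of 23 was called in Immature cells, with 10 at an unadjusted p under 0.05. On exon reads 5 of 24 rose in the average, beside 4.22% of all genes called in either direction. Of 20 receptor and signalling genes 5 rose in the average and none fell, beside 6.06% of all genes called in either direction. Among the 5 were Socs1 (2.29 ± 0.49, adjusted p = 0.00237), Stat3 (0.69 ± 0.16, adjusted p = 0.00408), Irf1 (0.71 ± 0.19, adjusted p = 0.0193) and Irf3 (0.91 ± 0.25, adjusted p = 0.0212). Of 31 other type I interferon response genes tested, 2 rose and 2 fell in the average, beside 6.06% of all genes called in either direction. Their median was 0.16, and none was called in Immature cells. All these averages include the ABC libraries, in which Siglech and Cd79a separated the genotypes. Values without the ABC libraries are not given for these lists, so the averages cannot be read as shared by all subsets.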

How the data were processed

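Per the submitters' processing notes, reads were handled with Trim Galore 0.6.5, STAR 2.7.11a and featureCounts 2.0.3 on build GRCm39. The authors deposited raw counts per gene, each gene taken as 1 interval for 50760 of 50763 genes, and TPM for 41075 entries. TPM times exonic length gave whole multiples of 1 read for 99.95% of values (tolerance 0.02), which recovered exon reads. Of these entries 6 name no gene, hold at most 0.126% of exon reads and were left out. How overlapping genes were counted is not given in the sources used here. Totals per library ran from 7883989 to 34925667 gene-span counts and 7897848 to 29204625 exon reads. Precision from depth covers counting error only.

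Counts were tested with edgeR 4.0.16 (R 4.3.3): TMM, filterByExpr, robust quasi-likelihood F test, two-sided, Benjamini-Hochberg 0.05 over all genes. The average over subsets used limma 3.58.1 (voom, animal as random block, consensus correlation 0.0729 on gene-span counts and 0.124 on exon reads). Fold changes carry standard errors derived from the test statistic. The scripts were tested on simulated data. Alternatives were RLE scaling, no filter, DESeq2 1.42.0, exon reads, each library left out, a replicate block, library type and a background term. Fits with library type, with the background term, without ABC, or with a block on exon reads were added after seeing the data.

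Replicate numbers do not pair the genotypes, which are different animals. Across subsets in wt the animal number in the library names pairs libraries, and deviations of paired libraries correlated at 0.0724, 0.0588 and -0.114 (ABC and Follicular), 0.409 and 0.412 (MarginalZone and Follicular), 0.551 (1 pair, Plasma and Follicular) and -0.28, -0.108 and 0.186 (GC and Immature). The members, gene lists and tests were chosen with earlier results of these data known. Values in every library are printed for up to 6 called members per comparison by size of fold change, for the 3 lowest p where fewer than 3 were called, and for the most abundant and the most restricted members. For the upstream lists, up to 4 called genes per comparison and a few fixed genes could be named. Values of Bst2 (ABC between genotypes), Irf7, Irf9, Rtp4, Ifit1, Usp18 and Trim30a outside this rule were chosen after they were seen.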

Additional observations from a re-analysis of the deposited data

Results flagged for a closer look

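In groups of 4 libraries, GC and Follicular, 24 of 100 values tested stood apart by Dixon's criterion. Chance gives about 1 in 20 such groups if values are normally distributed, which was not checked for TPM, and values of 1 library are not independent. Where a member was undetected in all other libraries of its group, any value above that meets the criterion by construction. This holds for Rsad2 in GC 1Mek2, for Oas1g in GC 1Mek2, GC wt and Follicular wt, and for Oasl2 and Cxcl10 in Follicular 1Mek2. The 24 values therefore cannot be read as an excess over chance. No explanation was tested for any of these values.

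Follicular 1Mek2 replicate 2, a type 1 library, was far above the other 3 libraries of its group in 7 members. It held Cmpk2 at 26.2 TPM against 1.31 to 3.00 TPM, Ifi44 at 4.64 TPM, Rtp4 at 32.5 TPM, Ifit3 at 24.3 TPM, Irf9 at 240.3 TPM against 17.1 to 48.3 TPM, Oasl2 at 0.185 TPM and Cxcl10 at 1.43 TPM, the last 2 against 0. Follicular 1Mek2 replicate 1, a type 2 library, was highest in Ifi35, at 1944 TPM against 611 to 821 TPM, and in Isg20, at 38.6 TPM against 19.2 to 21.2 TPM.

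Follicular wt replicate 1 was far above its group in Mx2, at 21.6 TPM against 0.0873 to 1.71 TPM, in Irf7, at 168 TPM, in Ifi44, at 10.9 TPM, and in Oas1g, at 0.476 TPM against 0.

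Among GC 1Mek2 libraries, Mx2 was highest at 0.356 TPM and Ifi35 lowest at 175 TPM in replicate 4. Rsad2 was at 0.81 TPM in replicate 2 and at 0 in the others, Oas1g at 0.0647 TPM in replicate 1 and at 0 in the others, and Mx1 at 3.17 TPM in replicate 3. Among GC wt libraries, Ubd was at 2.81 TPM in replicate 1, Isg15 at 42.5 TPM and Xaf1 at 23.2 TPM in replicate 2, and replicate 4, whose library name reads Mek1ff, held the lowest Ifi35, 185 TPM, and the highest Oas1g, 0.14 TPM, and Oasl2, 2.17 TPM.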

How the results depend on the processing

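No count or named value changed its direction under any alternative run. Of 703 alternative values of named members, 542 kept their side of the threshold, 140 lost a call and 21 gained one. Counts of called members are given where they moved by over 1.5 times. They stand without the share of all genes in the same fit, so their moves are not results about the list.

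With DESeq2 the count was 1 in GC, 3 in ABC, 1 in Follicular and 5 in Plasma between genotypes, each 0 in edgeR, and 11 in Immature, 11 in GC, 13 in ABC and 1 in MarginalZone against Follicular in wt. With no filter it was 2 in Plasma between genotypes, and 14 in Immature and 12 in GC against Follicular. With RLE scaling it was 5 in ABC against Follicular, and it shifted the median over all genes by -0.37 (ABC between genotypes), -0.17 (Immature against Follicular), 0.23 (ABC against Follicular) and -0.15 (GC against Immature). On exon reads it was 1 in Immature between genotypes and 3 in Immature against Follicular.

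Leaving out 1 library at a time gave 2 to 4 called members for Immature between genotypes. Against Follicular it gave 2 to 12 for Immature, 4 to 10 for GC, 0 to 16 for ABC and 3 to 10 for Plasma, and GC against Immature gave 1 to 10. The average over subsets gave 2 to 5 without 1 animal, 5 without the animal as a block, 5 with library type as a term, and 0 on exon reads without ABC libraries.

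With a library type term the count was 1 in Follicular and 3 in Plasma between genotypes (4 on exon reads) and 1 in MarginalZone against Follicular. With type 2 libraries only it was 10 in Plasma between genotypes (12 on exon reads), where 1 wt library is left and assumed to vary like the rest, and 0 in ABC against Follicular (1 on exon reads). Against the type 1 Follicular library only it was 0 in GC (0 on exon reads) and 2 in Immature on exon reads. With the background term it was 0 in Immature between genotypes.

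Where replicate numbers share only a number, a replicate block gave 7 members in Immature (8 on exon reads) and 0 in the other subsets between genotypes. Correlations of same-numbered libraries ran from -0.715 to 0.462. With the animal as a replicate block in wt, the count was 0 in ABC against Follicular (0 on exon reads), 0 in MarginalZone against Follicular, and 4 in GC against Immature (14 on exon reads). Plasma and Follicular share 1 animal, so no such fit was run. With 3 or 4 libraries a group, low members such as Oas1g, Oasl2 and Cxcl10 rest on few reads.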
